A study of Sus scrofa with 61 samples.

Results

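The genes described here encode 10 core glycolytic enzymes of muscle, GPI, PFKM, ALDOA, TPI1, GAPDH, PGK1, PGAM2, ENO3, LDHA and LDHB, measured in the longissimus muscle of fetal pigs shortly before birth. Their probes were found by name, as every probe that the array or the study's gene lists call by one of these 10 symbols. The array gives 39175 different names, symbols or sequence identifiers, to its probes. The 10 symbols gave 47 of the 60305 probes that are not controls, of which 46 were bright enough to be kept among 42436 kept probes. The number of kept probes was 5 for GPI, 3 for PFKM, 1 for ALDOA, 6 for TPI1, 2 for GAPDH, 7 for PGK1, 2 for PGAM2, 4 for ENO3, 3 for LDHA and 13 for LDHB. For each gene the brightest kept probe on average is its main probe, and values below are those of main probes unless others are named. No spot of these genes was saturated.

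Glycolysis breaks glucose down to pyruvate in the cytosol and yields ATP without oxygen. Lactate dehydrogenase then converts pyruvate to lactate, which returns the cofactor that the GAPDH step needs, and its subunits LDHA and LDHB are the forms typical of glycolytic and of oxidative tissue, respectively. Skeletal muscle uses muscle-type isozymes for several steps, among them PFKM, PGAM2 and ENO3, and builds up this equipment as its fibres mature around birth.

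RNA of 61 male fetuses, obtained by caesarean, was labelled with Cy3 and hybridized to 1 array each. LW (Large White) and MS (Meishan) fetuses were purebred. The dam was MS and the sire LW in LWMS fetuses, and the reverse held in MSLW. Each genotype was represented by 8 fetuses on day 90 of gestation. On day 110 there were 9 LW, 7 MS, 8 LWMS and 5 MSLW fetuses. The series set these ages and breeds side by side because MS piglets survive birth better than LW piglets. Sows were inseminated with mixed semen, so purebred and crossbred fetuses shared litters. The sow of each fetus was not used here, and littermates count as separate fetuses. Values are log2 quantile-normalized intensities, and differences were tested with limma over all 42436 kept probes at a Benjamini-Hochberg threshold of 1%. A difference of 1 on this scale is 2-fold, and ± after a difference is its standard error. Tests of age, of MS against LW and of MSLW against LWMS set fetuses of different sows against each other. Their p-values and standard errors do not measure the spread between sows.

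The arrays lay on 8 slides with 6 to 8 of the 8 groups on each, and 34346 to 45683 probes per array were well above background. The summed level of 5 skeletal muscle fibre markers (ACTA1, CKM, DES, MYLPF, TNNT3) lay between 20.63 and 20.91 in every fetus and was higher at day 110. In LW it ran from 20.63 to 20.77 at day 90 and 20.76 to 20.87 at day 110, and in MS from 20.68 to 20.72 and 20.79 to 20.87. LWMS ran from 20.66 to 20.79 and 20.76 to 20.89, and MSLW from 20.66 to 20.75 and 20.83 to 20.91. The 4 connective tissue markers measured (COL1A1, COL3A1, DCN, PDGFRA) fell with age in every genotype, where 23.5% to 28.1% of all probes were called lower. Their summed level ran from 18.16 to 18.51 in LW and 18.36 to 18.47 in MS at day 90, and from 16.79 to 17.50 in LW and 16.17 to 16.55 in MS at day 110. In LWMS it ran from 18.25 to 18.50 at day 90 and 16.46 to 17.29 at day 110, and in MSLW from 18.26 to 18.55 and 16.67 to 17.33. At day 110, 3 of these 4 markers were lower in MS than in LW, where 15.2% of all probes were called lower. Their part in the enzyme differences below was not tested. In whole muscle RNA, fewer cells of a type and less RNA per cell cannot be told apart.

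The LW day 110 fetus numbered replicate 9 gave the highest value of its group for 8 of the 10 enzyme genes and the lowest for GAPDH. Among the 9 LW day 110 fetuses, MYH3, the embryonic myosin heavy chain, was at 14.90 in replicate 1, 15.72 in replicate 9 and 16.56 to 17.25 in the others. As a group difference, MYH3 fell with age in every genotype, with -1.31 in LW (adjusted p = 2.00e-07), -3.59 in MS (adjusted p = 2.68e-21), -2.55 for LWMS and -2.82 for MSLW. At day 110 it was at 16.59 ± 0.79 (SD, n = 9) in LW and 13.71 ± 0.47 (SD, n = 7) in MS, a difference of -2.87 (adjusted p = 1.59e-16). Its part in the enzyme differences was not tested. Results that rest on replicate 9 are given with and without it. Over all kept probes, MSLW day 90 replicate 2 lay farthest from its group, with a root mean square deviation of 0.81 against 0.31 to 0.51 on the other arrays. Without it, ENO3 passed beside PGK1 for the genotype of the sow at day 90, and each other count of the 10 genes was within 1.5 times its value with it.

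The probes are 60-base oligonucleotides, and the sequences shown here are those on which the results on PGK1 and on the 2 lactate dehydrogenase genes turn. For these 3 genes the first 30 bases of the main probe are given in lower case.

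PGK1 main probe: ctggatttgcctatattcctcaagatccca

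LDHA main probe: ctgggatccaatgtacaaatccagtattgc

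LDHB main probe: gtcaaagcccatgcttagtttaatgctttc

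The LDHB main probe was printed 3 times under different names with the same 60 bases, which shows how closely spots of 1 sequence agreed. The differences between these spots had an SD of 0.11, 0.13 and 0.05 over 61 arrays. In MSLW day 90 replicate 8, however, the main probe read 13.90 while the same sequence read 14.52 and 14.62 at the other spots. A pair of TPI1 probes of identical sequence differed with an SD of 0.20, and by up to 1.30 on that same array.

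A pair of PGK1 probes shares 55 bases, and each of them shares 24 with another PGK1 probe. Of the 78 pairs of LDHB probes, 8 share 30 bases or more. Counts of probes for these genes are thus not counts of separate evidence. Among the ENO3 probes, 1 pair shares 41 bases, given in capitals, so these 2 probes are not separate evidence.

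ENO3 first probe: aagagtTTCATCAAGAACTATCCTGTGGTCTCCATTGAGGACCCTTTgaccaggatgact

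ENO3 second probe: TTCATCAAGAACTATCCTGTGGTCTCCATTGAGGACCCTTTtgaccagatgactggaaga

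RefSeq's pig gene table (Sscrofa11.1) lists 2 genes under the symbol LDHB, so a share of the LDHB signal from a near-identical copy cannot be set aside.

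From day 90 to day 110 most of the pathway rose in every genotype. In LW, 7 of the 10 main probes passed the test, all of them higher at day 110. The share of all kept probes called in LW was 45.3%, and 21.8% were called higher. In MS, 9 of 10 rose, against 56.7% called and 28.6% called higher over all probes. LWMS and MSLW each had 8 of 10 higher at day 110, where 25.1% and 20.8% of all probes were called higher. For the 10 genes the median difference was 0.44 in LW and 0.76 in MS, against 0.53 for LWMS and 0.53 for MSLW, and the median over all probes lay between 0.02 and 0.04. Counting all 46 probes, those called higher numbered 33 for LW, 45 for MS, 42 for LWMS and 38 for MSLW, and no probe was called lower.

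Fetuses of the 2 ages did not overlap for 4 of the 10 genes in LW (PFKM, ALDOA, ENO3 and LDHB) and for 8 in MS (all but GAPDH and LDHB). Over all probes, the ranges were apart with day 110 on the higher side for 10.4% in LW and 18.6% in MS.

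**Figure D1:**
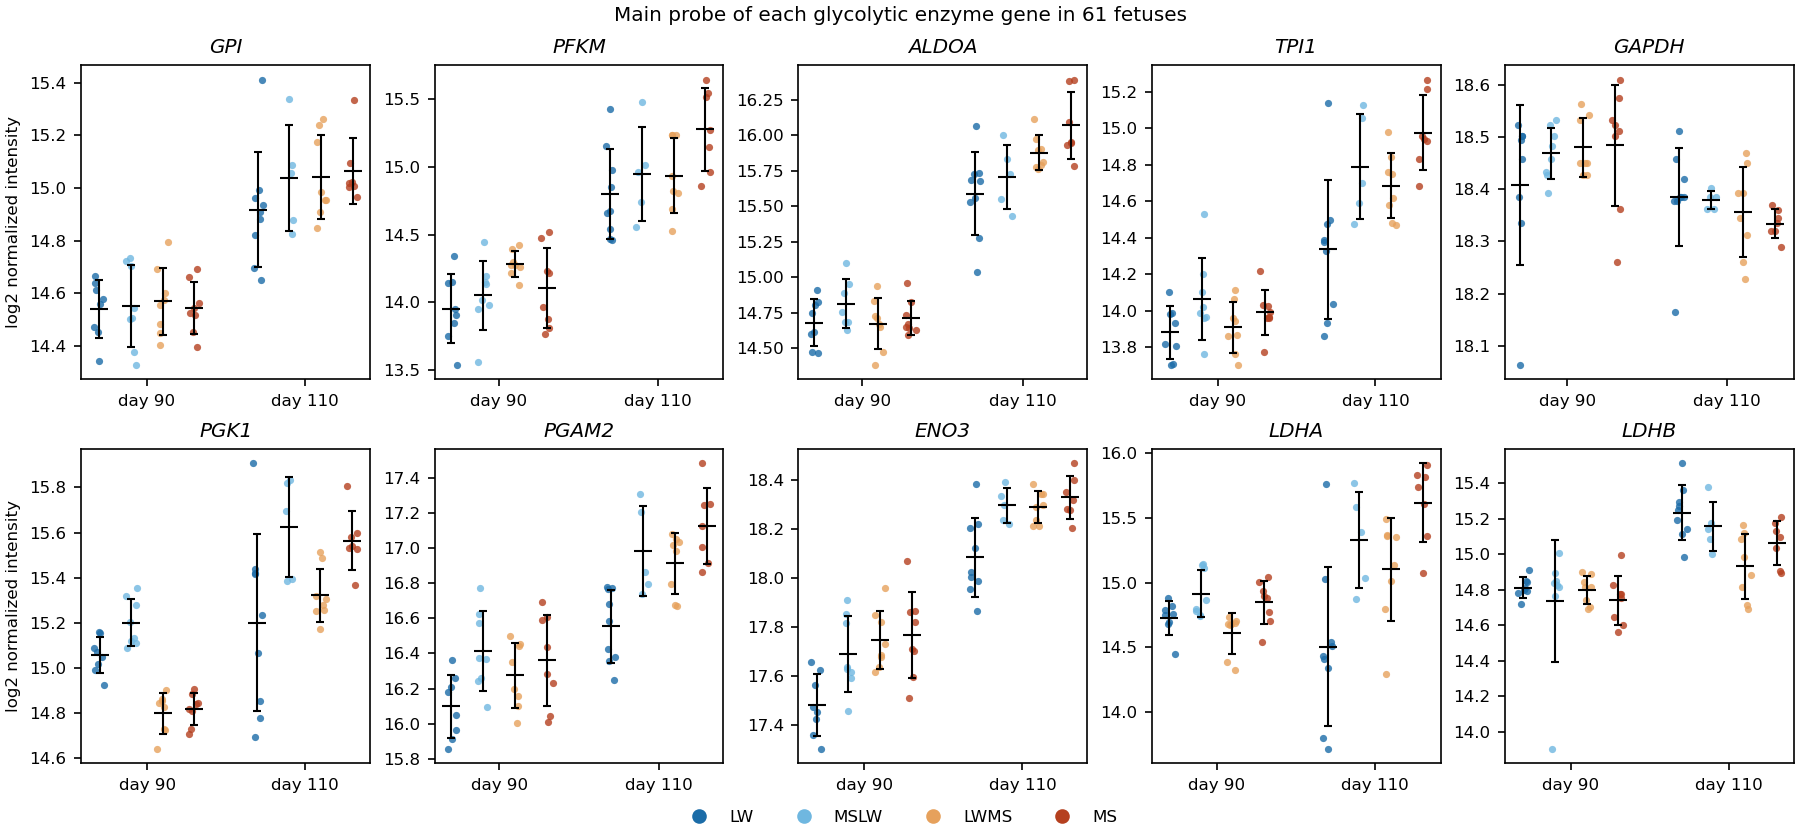
Log2 normalized intensity (vertical axis) of the main probe of each of the 10 enzyme genes in every fetus, by gestational day and genotype, with the group mean and SD in black. Most genes are higher at day 110, GAPDH stays between 18.06 and 18.61 throughout, and PGK1 at day 90 forms a lower band in LWMS and MS than in LW and MSLW.

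The hexose phase of the pathway begins with GPI, which turns glucose 6-phosphate into fructose 6-phosphate. GPI ran from 14.34 over a median of 14.57 to 14.67 in LW at day 90, and from 14.65 over 14.91 to 15.41 at day 110. In MS it ran from 14.40 over 14.54 to 14.69 and then from 14.96 over 15.02 to 15.33. The MS ages were apart and the LW ages touched. GPI rose by 0.38 ± 0.08 in LW (adjusted p = 3.22e-05), with 0.52 ± 0.08 for MS (adjusted p = 1.79e-07). At day 110 MS and LW differed by 0.15 (95% interval -0.01 to 0.31, adjusted p = 0.143), which did not pass. The other GPI probes gave larger breed differences, 0.30 to 0.49, and 3 of the 5 GPI probes were called higher in MS. The dimmest of the 5 GPI probes, at a mean of 5.67, is a probe for which the strand it reads was not checked.

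PFKM, the muscle form of phosphofructokinase, catalyses the main control step of glycolysis. In LW it ran from 13.54 over 13.93 to 14.34 at day 90 and from 14.46 over 14.68 to 15.43 at day 110. MS fetuses ran from 13.76 over 14.09 to 14.52 and from 14.86 over 15.27 to 15.65. The ages were apart in both breeds, and the breeds overlapped at both ages. PFKM rose 1.80-fold in LW (0.85 ± 0.13, adjusted p = 1.97e-07) and 2.25-fold in MS (1.17 ± 0.14, adjusted p = 1.70e-10). The MS excess at day 110 was 0.48 ± 0.14 (adjusted p = 0.00433). This call was lost with the slide as a block (0.44, adjusted p = 0.0105), with the deposited log2 values (adjusted p = 0.0131) and with the median over the 3 probes (adjusted p = 0.0170). Taken singly, each of the 3 PFKM probes was called higher in MS at day 110 (0.48 to 0.68).

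ALDOA, the aldolase that splits fructose 1,6-bisphosphate, showed the largest age differences of the 10 main probes in LW, MS and LWMS. Its values in LW ran from 14.47 over 14.68 to 14.91 at day 90 and from 15.04 over 15.68 to 16.06 at day 110. In MS they ran from 14.59 over 14.66 to 14.96 and from 15.79 over 15.95 to 16.39. The ages were apart in both breeds. The rise was 1.88-fold in LW (0.91 ± 0.10, adjusted p = 6.45e-12) and 2.56-fold in MS (1.36 ± 0.10, adjusted p = 2.64e-17). LWMS rose by 1.20 ± 0.10 and MSLW by 0.89 ± 0.12, in MSLW with 7 of 8 day 90 fetuses since 1 spot was marked non-uniform. The MS fetuses of day 110 were 0.48 ± 0.10 above the LW fetuses (adjusted p = 0.000102). A single probe stands for ALDOA, so no second probe checks it.

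TPI1, triose phosphate isomerase, interconverts the 2 triose phosphates that aldolase makes. In LW it ran from 13.70 over 13.88 to 14.11 at day 90 and from 13.86 over 14.38 to 15.14 at day 110, where replicate 9 held the 15.14 and no other LW fetus was above 14.50. In MS it ran from 13.78 over 13.98 to 14.22 and from 14.68 over 14.94 to 15.27. Without replicate 9 all MS fetuses of day 110 were above all LW fetuses of that age. TPI1 rose by 0.46 ± 0.11 in LW (adjusted p = 0.000370), with 0.98 ± 0.12 for MS (adjusted p = 1.17e-10). The MS excess at day 110 was 0.64 ± 0.11 (adjusted p = 8.38e-06), was positive on each of the 6 slides that held both groups, and was called for all 6 TPI1 probes.

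**Figure D2:**
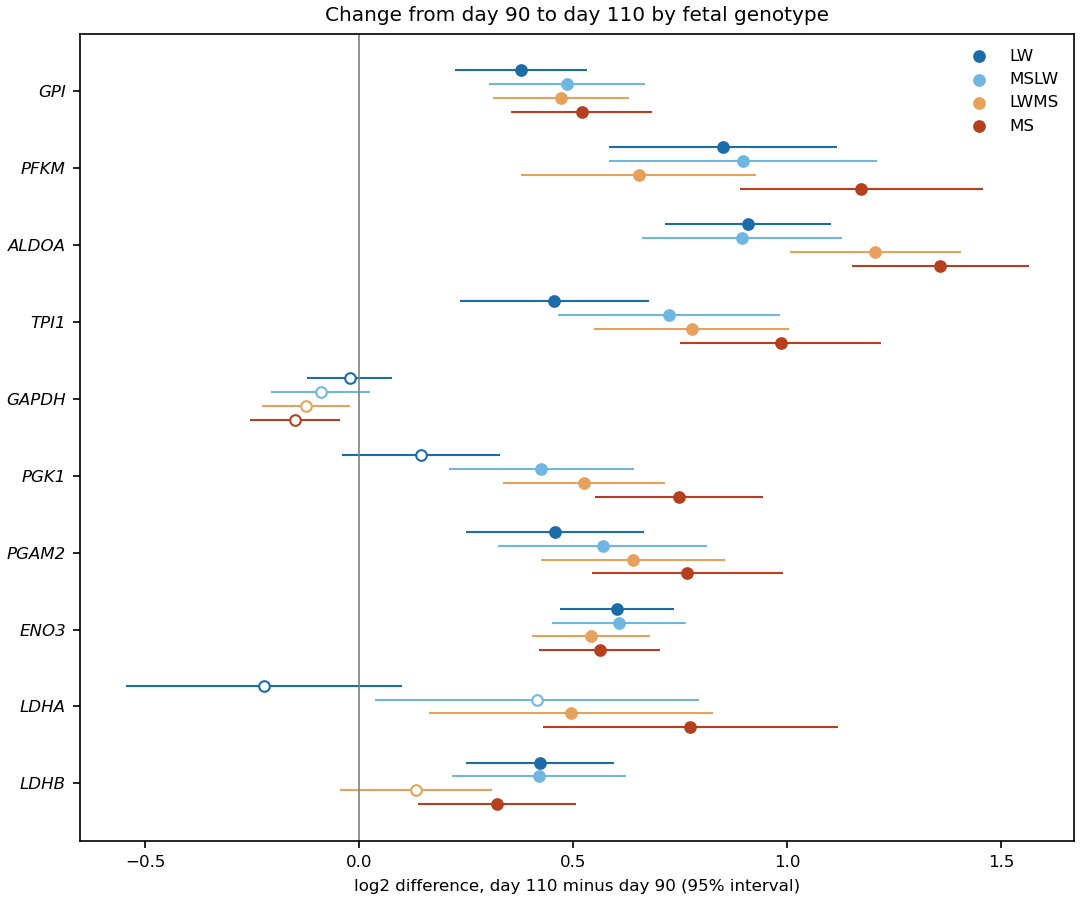
Log2 difference between day 110 and day 90 (horizontal axis) for the 10 main probes in each fetal genotype, with 95% intervals. Filled points passed the 1% threshold and open points did not. ALDOA lies between 0.89 and 1.36 in all genotypes, GAPDH lies between -0.15 and -0.02, and LDHA runs from -0.22 in LW to 0.77 in MS.

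GAPDH, which oxidizes glyceraldehyde 3-phosphate and is often used as a reference gene, stood apart from its neighbours. Its main probe stayed between 18.06 and 18.61 in all 61 fetuses and ranked 15th to 90th among the kept probes of each array. The age difference did not pass in any genotype, at -0.02 in LW (95% interval -0.12 to 0.08, adjusted p = 0.727), -0.15 in MS (-0.26 to -0.05, adjusted p = 0.0103), -0.12 in LWMS and -0.09 in MSLW. With the slide as a block the difference in MS passed as a fall (-0.17, adjusted p = 0.000382), while scaling to the 75th percentile instead of quantile normalization turned it to 0.63 (adjusted p = 2.32e-07). The second GAPDH probe rose in both breeds, with 0.33 for LW (adjusted p = 2.11e-05) and 0.39 for MS (adjusted p = 1.91e-06). The direction for GAPDH therefore differs between probes and between scalings, and no direction is given here.

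PGK1, phosphoglycerate kinase, makes the first ATP of the pathway and lies on the X chromosome, so that each of these males carried the copy of its sow. In LW it ran from 14.92 over 15.06 to 15.16 at day 90 and from 14.69 over 15.23 to 15.91 at day 110. The LW values of day 110 thus spread to both sides of those of day 90. MS fetuses ran from 14.70 over 14.83 to 14.91 and from 15.37 over 15.54 to 15.80, with the ages apart. PGK1 rose 1.68-fold in MS (0.75 ± 0.10, adjusted p = 1.56e-09), by 0.53 ± 0.09 in LWMS and by 0.43 ± 0.11 in MSLW. The difference in LW was 0.14 (95% interval -0.04 to 0.33, adjusted p = 0.184), and with scaling to the 75th percentile it passed (0.51, adjusted p = 0.000199). All 7 PGK1 probes were above 0 in LW (0.10 to 0.45), and 1 of them was called higher.

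PGAM2, the muscle form of phosphoglycerate mutase, had MS and LW fetuses apart at day 110 with every array counted. In LW it ran from 15.85 over 16.11 to 16.36 at day 90 and from 16.25 over 16.58 to 16.78 at day 110. In MS it ran from 16.01 over 16.36 to 16.69 and from 16.86 over 17.13 to 17.48. The lowest MS fetus at day 110 was thus above the highest LW fetus. PGAM2 rose by 0.46 ± 0.10 in LW (adjusted p = 0.000163), with 0.77 ± 0.11 for MS (adjusted p = 2.14e-08). The MS excess at day 110 was 1.49-fold (0.57 ± 0.11, adjusted p = 2.01e-05), and on the 6 slides with both groups it ran from 0.45 to 0.80.

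ENO3, the muscle form of enolase, rose in the 4 genotypes. In LW it ran from 17.30 over 17.46 to 17.66 at day 90 and from 17.87 over 18.02 to 18.39 at day 110. MS fetuses ran from 17.51 over 17.77 to 18.07 and from 18.21 over 18.32 to 18.47. The ages were apart in both breeds. It came to 0.60 ± 0.07 in LW and 0.56 ± 0.07 in MS, with 0.54 ± 0.07 for LWMS and 0.61 ± 0.08 for MSLW, and with adjusted p from 1.47e-11 to 1.59e-09. The main probe ranked 29th to 312th on the arrays, and the 3 dimmer ENO3 probes rose by more, 0.77 to 0.90 in LW and 1.09 to 1.37 in MS. The overlapping pair shown above rose by 1.09 and 1.12 in MS.

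LDHA and LDHB, the last step, did not move alike. LDHA ran from 14.45 over 14.75 to 14.88 in LW at day 90 and from 13.71 over 14.43 to 15.77 at day 110. In MS it ran from 14.54 over 14.89 to 15.04 and from 15.07 over 15.74 to 15.91. The LW fetuses of day 110 spread most of all groups (SD 0.62), with 15.77 in replicate 9 and no other above 15.03, while in MS the ages were apart. LDHA rose by 0.77 ± 0.17 in MS (1.71-fold, adjusted p = 8.96e-05) and by 0.49 ± 0.17 in LWMS (adjusted p = 0.00853). In MSLW it was 15.58, 15.39, 14.87, 15.77 and 15.04 at day 110 and 14.74 to 15.14 at day 90, a difference of 0.42 that did not pass (adjusted p = 0.0578). In LW the difference was -0.22 (95% interval -0.55 to 0.10, adjusted p = 0.248) and -0.38 without replicate 9 (adjusted p = 0.0195), neither of which passed, and it was 0.15 with scaling to the 75th percentile. Over the 3 LDHA probes the LW difference ran from -0.33 to 0.25, the latter from the dimmest probe, and none was called. In MSLW the 3 probes ran from 0.42 to 0.68, and 1 was called higher.

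LDHB, in contrast, ran from 14.72 over 14.80 to 14.91 in LW at day 90 and from 14.98 over 15.25 to 15.51 at day 110, with the ages apart. MS fetuses ran from 14.56 over 14.76 to 14.99 and from 14.89 over 15.10 to 15.21, where the ages overlapped. LDHB rose by 0.42 ± 0.09 in LW (adjusted p = 3.47e-05), with 0.32 ± 0.09 for MS (adjusted p = 0.00188), a call in MS that was lost with the deposited values (0.30, adjusted p = 0.0210). Of its 13 probes, 12 were called higher at day 110 in LW and all 13 in MS. In MSLW it rose by 0.42 ± 0.10 (adjusted p = 0.000388), and by 0.30 (adjusted p = 0.000911) without replicate 8 of day 90, the array on which equal sequences disagreed. In LWMS the difference was 0.13 (95% interval -0.05 to 0.31, adjusted p = 0.197) for the main probe, the lowest of the 13. All 13 probes were above 0 in LWMS (median 0.29), and 10 of them were called higher.

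Probes of 1 gene differed in the size of the age difference. In MS it was smaller for brighter probes of 3 genes, with Pearson's r = -0.96 over 4 ENO3 probes, -0.94 over 13 LDHB probes and -0.86 over 7 PGK1 probes. The relation was weaker for TPI1 (-0.47 over 6 probes) and GPI (-0.34 over 5 probes), and in LW it was 0.01 for GPI. These are correlations across probes that share their target and arrays and are given as a description. The main probes, being the brightest, thus gave some of the smaller differences for these 3 genes. A level of 1 probe was not set against that of another.

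The comparison of MS with LW addresses how the breeds differ before birth. At day 90 only ENO3 passed among the 10 main probes (0.28 ± 0.07 higher in MS, adjusted p = 0.00131), where 6.23% of all probes were called higher in MS. Of the 4 ENO3 probes, with the overlapping pair among them, 3 were called higher in MS, and the 4 ran from 0.28 to 0.38. The main probe's call was lost with scaling to the 75th percentile (0.17, adjusted p = 0.326) and with only the LW and MS arrays of day 90 in the fit (adjusted p = 0.0144). That fit instead called PGK1, lower in MS (adjusted p = 0.00244). PGK1 differed by -0.24 ± 0.09 with all groups fitted (adjusted p = 0.064), where 6.61% of all probes were called lower, and its LW fetuses were all above its MS fetuses, as for 3.65% of all probes. PGAM2 was 0.26 ± 0.11 higher in MS (adjusted p = 0.0751) and passed with the slide as a block (0.26, adjusted p = 0.00133).

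At day 110, 7 of the 10 were higher in MS, namely PFKM, ALDOA, TPI1, PGK1, PGAM2, ENO3 and LDHA, and none was lower. Over all probes 29.0% were called and 13.7% were called higher in MS. The median difference of the 10 genes was 0.42, and that of all probes was 0.01. Of the 46 probes, 26 were called higher. With only the arrays of the LW and MS day 110 groups in the fit, 3 of the 10 passed (TPI1, PGAM2 and LDHA). The calls lost were those of PFKM (adjusted p = 0.0253), ALDOA (adjusted p = 0.0103), PGK1 (adjusted p = 0.0706) and ENO3 (adjusted p = 0.0236). The largest difference was that of LDHA, 1.12 ± 0.17 or 2.17-fold (adjusted p = 2.65e-07), which was called for all 3 LDHA probes (1.02 to 1.47). The dimmest of these, at a mean of 7.03, is another probe for which the strand it reads was not checked. On the 6 slides with both groups the LDHA difference ran from 0.57 to 1.56, and without LW replicate 9 it was 1.27 (adjusted p = 3.38e-10). The breeds overlapped for LDHA all the same, since replicate 9 lay within the MS range, and PGAM2 was the 1 gene of 10 whose fetuses were apart. Over all probes, 3.77% had all MS fetuses above all LW fetuses at day 110. Without replicate 9, MS fetuses were above all LW fetuses for 4 of the 10 (ALDOA, TPI1, PGAM2 and LDHA), against 5.23% of all probes. GAPDH was then apart on the other side, with MS below LW, as were 5.75% of all probes.

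PGK1 was 0.36 ± 0.10 higher in MS at day 110 (adjusted p = 0.00163), and ENO3 0.24 ± 0.07 (adjusted p = 0.00342). The 7 PGK1 probes, with their overlapping pair, ran from 0.31 to 0.79, and 4 were called higher in MS. The main ENO3 probe also missed with the deposited values (0.21, adjusted p = 0.0113). All 4 ENO3 probes, the overlapping pair among them, were called higher in MS, the dimmer ones by 0.65 to 0.85. LDHB differed by -0.17 (95% interval -0.35 to 0.01, adjusted p = 0.127), and none of its 13 probes passed. GAPDH differed by -0.05 (95% interval -0.15 to 0.05, adjusted p = 0.452), and by 0.35 with scaling to the 75th percentile, where it passed.

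**Figure D3:**
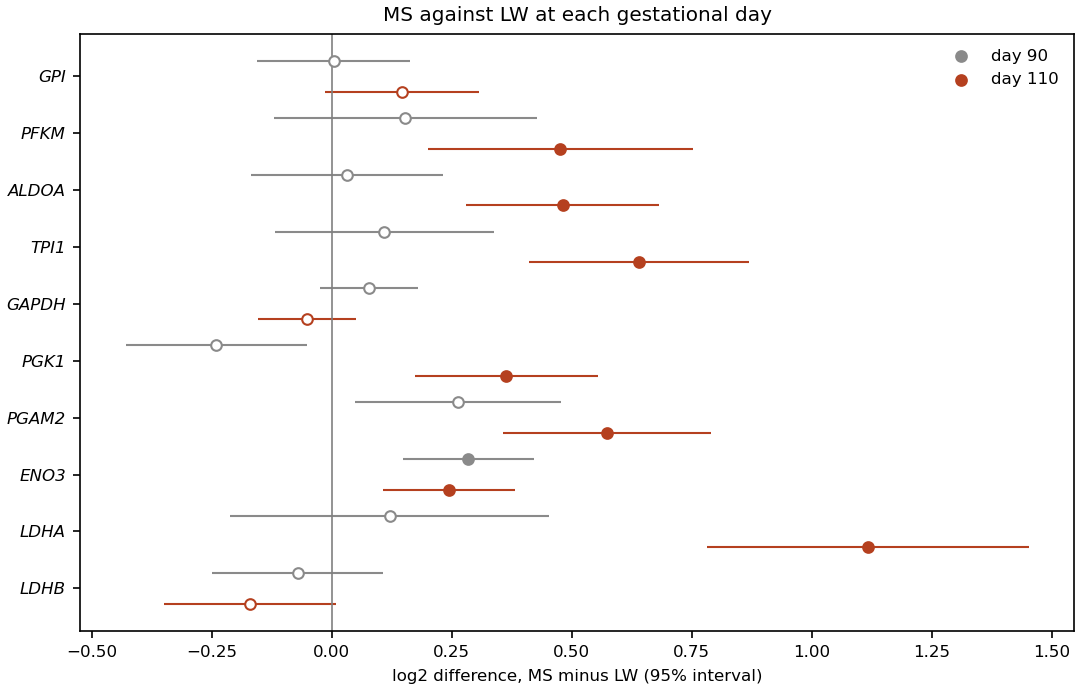
Log2 difference between MS and LW (horizontal axis) for the 10 main probes at day 90 and day 110, with 95% intervals. Filled points passed the 1% threshold. At day 90 the values lie between -0.24 and 0.28, and at day 110 they reach 1.12 for LDHA.

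The age difference itself was compared between MS and LW by an interaction term, which uses the same fetuses as the comparisons above. PGK1 and LDHA passed, with a larger age difference in MS by 0.60 ± 0.13 (adjusted p = 0.00146) and 1.00 ± 0.24 (adjusted p = 0.00281). Over all probes, 2.56% passed in this direction. Of the probes of these genes, 4 of 7 for PGK1, with its overlapping pair among the 7, and 3 of 3 for LDHA were called. Without LW day 110 replicate 9, ALDOA (0.51, adjusted p = 0.00675) and TPI1 (0.63, adjusted p = 0.00142) passed as well. ENO3 had an interaction of -0.04 (95% interval -0.24 to 0.15) and LDHB one of -0.10 (-0.35 to 0.15), both short of the threshold. The other 3 ENO3 probes had interactions of 0.31 to 0.47, and 9 of the 13 LDHB probes were above 0 (median over the 13, 0.12), with none of either gene called. With only the arrays compared in the fit, the PGK1 call was lost (adjusted p = 0.0114) and LDHA passed (adjusted p = 0.00994).

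The balance of LDHA and LDHB, taken in each fetus as the difference of their log2 values and set to 0 at the mean of LW day 90, shows how the genotypes parted. At day 90 the group means were 0.19 ± 0.22 (SD, n = 8) in MS, -0.11 ± 0.18 (SD, n = 8) in LWMS and 0.26 ± 0.30 (SD, n = 8) in MSLW, the last with the doubtful LDHB spot of replicate 8 at 0.93. At day 110 the balance was -0.64 ± 0.62 (SD, n = 9) in LW and 0.64 ± 0.31 (SD, n = 7) in MS, with 0.26 ± 0.46 (SD, n = 8) in LWMS and 0.26 ± 0.40 (SD, n = 5) in MSLW between them. The LW fetuses ran from -1.47 to 0.56 and the MS fetuses from 0.24 to 1.03. The LW value of 0.56 was that of replicate 9, without which the LW mean was -0.79 ± 0.46 (SD, n = 8). Without replicate 8, the MSLW mean of day 90 was 0.17 ± 0.14 (SD, n = 7). The balance combines 2 probes, so its zero has no meaning of its own and only differences between fetuses can be read.

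**Figure D4:**
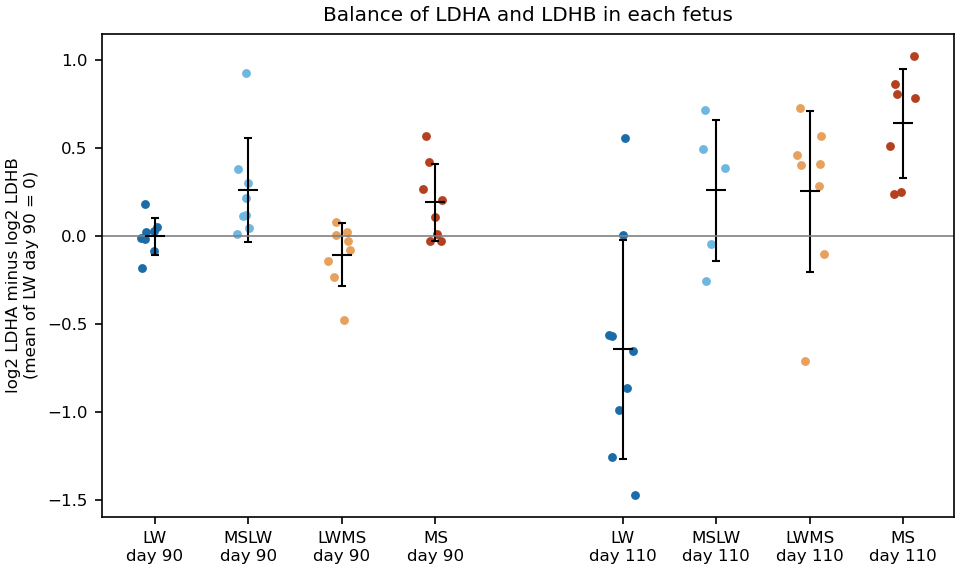
Log2 LDHA minus log2 LDHB (vertical axis, mean of LW day 90 set to 0) in each fetus by genotype and day, with group mean and SD. At day 110 the LW mean is -0.64 and the MS mean 0.64, with both crosses at 0.26.

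MSLW and LWMS each have 1 parent of each breed, so a difference between them changes the genotypes of sow and boar together. These genotypes were told apart only with the purebreds added, as in the tests of the sow and of the boar below. At day 90, MSLW and LWMS differed for none of the 10 main probes in limma at the 1% threshold, where 0.500% of all probes were called. The nearest was PGK1, 0.40 ± 0.09 higher in MSLW (adjusted p = 0.0139), and 1 other PGK1 probe passed (0.57, adjusted p = 0.000119). PGK1 passed with the deposited values (0.44, adjusted p = 0.00707), with normexp background correction (0.46, adjusted p = 0.00258) and without LW day 110 replicate 9 (adjusted p = 0.00165), and was positive on 8 of 8 slides. At day 110 none passed, with 0.912% of all probes called, and PGK1 had a difference of 0.30 (95% interval 0.09 to 0.52, adjusted p = 0.124). In limma at an unadjusted p under 0.05, 1 of the 10 (PGK1) was below it at day 90 and 2 (PGK1 and LDHB) at day 110.

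Using all 32 fetuses of day 90, PGK1 was lower in fetuses of MS sows by 0.32 on the log2 scale (difference -0.32 ± 0.07, adjusted p = 0.000414), the 1 call among the 10 genes for the genotype of the sow at this age, where 6.48% of all probes were called. ENO3 missed the threshold (0.17, adjusted p = 0.0112) and passed with the slide as a block (0.17, adjusted p = 0.00566). In fetuses of LW sows PGK1 ran from 14.92 over 15.06 to 15.16 in LW and from 15.09 over 15.17 to 15.35 in MSLW. In fetuses of MS sows it ran from 14.64 over 14.83 to 14.90 in LWMS and from 14.70 over 14.83 to 14.91 in MS. No fetus of a MS sow reached the lowest fetus of a LW sow, and 0.170% of all probes were apart on this side. Each of the 8 slides held 2 fetuses of each kind of sow, and the difference ran from -0.44 to -0.19 on them. Of the 7 PGK1 probes, which include the overlapping pair named above, all were lower and 3 were called (-0.45 to -0.30). The other 4 did not pass, nor did the median over the 7 probes (-0.25, adjusted p = 0.0652). The genotype of the sow differs only between sows, and littermates were counted as separate fetuses. The p-values for the sow, here and at day 110, thus do not measure the spread between sows. The same holds for the tests of age, of MS against LW, of their interaction and of MSLW against LWMS. Whether a few litters gave this split was not tested. The X chromosome, the rest of the genome of the sow and the uterus she provided cannot be told apart in this design.

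**Figure D5:**
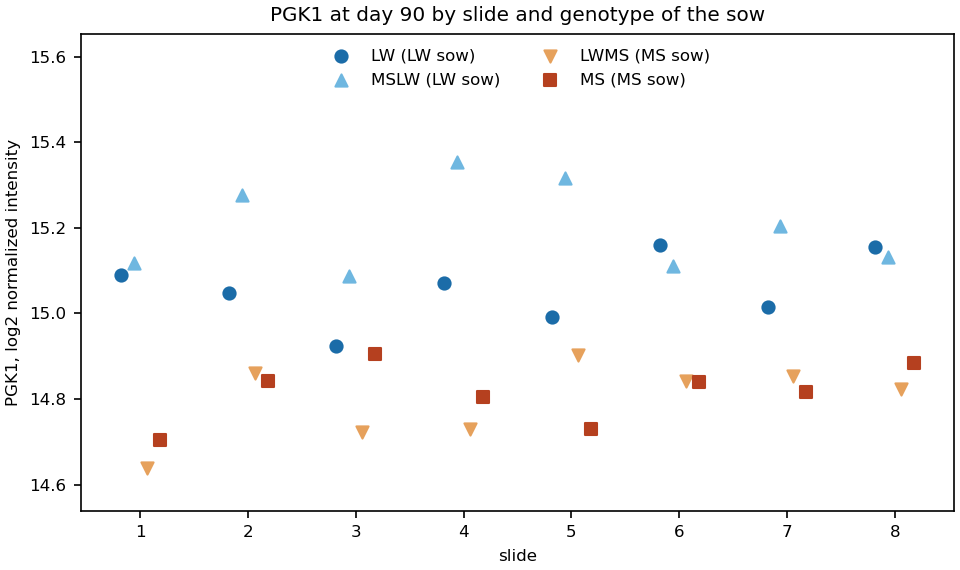
PGK1 log2 normalized intensity (vertical axis) in the 32 fetuses of day 90 by slide (horizontal axis), with symbols for the genotype of the fetus and of its sow. On each slide both fetuses of LW sows lie above both fetuses of MS sows.

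At day 110 PGK1 was called for the genotype of the boar and not for that of the sow. As at day 90, its mean was higher in MSLW than in LWMS without passing (0.30, 95% interval 0.09 to 0.52). The values of MSLW were 15.70, 15.83, 15.39, 15.82 and 15.38, near those of MS, while LWMS ran from 15.17 over 15.29 to 15.51. For the genotype of the sow the difference was 0.03 (95% interval -0.11 to 0.17, adjusted p = 0.813), and for that of the boar it was 0.33 ± 0.07 (adjusted p = 0.000416). The change of the sow difference between the ages was 0.35 ± 0.10 and missed the threshold (adjusted p = 0.0170), as did that of the boar difference (0.25 ± 0.10, adjusted p = 0.206). PGK1 passed in the former test with the deposited values (0.43, adjusted p = 0.00518) and without LW day 110 replicate 9 (0.40, adjusted p = 0.00136).

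By the genotype of the sow at day 110, ALDOA (0.33 ± 0.08, adjusted p = 0.000901) and LDHA (0.44 ± 0.13, adjusted p = 0.00657) were higher with MS sows, where 6.66% of all probes were called higher. The LDHA call was lost without MSLW replicate 3 (0.39, adjusted p = 0.0273) or replicate 5 (0.41, adjusted p = 0.0197), and the ALDOA call with marked spots kept (0.32, adjusted p = 0.0166). By the genotype of the boar at day 110, TPI1 (0.37 ± 0.09, adjusted p = 0.00102), PGK1, PGAM2 (0.32 ± 0.08, adjusted p = 0.00257) and LDHA (0.67 ± 0.13, adjusted p = 6.29e-05) were higher with MS boars, where 5.93% of all probes were called higher. The PGAM2 call was lost without MSLW replicate 1 (0.28, adjusted p = 0.0121). LDHA was thus called for both parents. At day 90 none of the 10 passed for the boar, with 5.14% of all probes called, and 2 (PGAM2 and ENO3) had an unadjusted p under 0.05.

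None of the 10 passed in limma for an age difference that changed with the genotype of the boar (0.497% of all probes called) or of the sow (2.91% called), or for crosses away from the mean of the purebreds at day 110 (0.0778% called). At an unadjusted p under 0.05 there were 3 for the boar (TPI1, PGK1 and LDHA), 5 for the sow (ALDOA, TPI1, PGK1, LDHA and LDHB) and 0 for the crosses. The largest distance of the crosses from the purebred mean was that of LDHA, 0.15 (95% interval -0.10 to 0.41).

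Within groups, 8 of the genes varied together from fetus to fetus, and the main probes of GAPDH and LDHB did not follow them. After the group and slide means were removed, the 28 pairs of these 8 correlated at r = 0.38 to 0.84, and at 0.17 to 0.81 without LW day 110 replicate 9. ALDOA and TPI1 correlated at r = 0.84 over 60 fetuses (0.81 without replicate 9), TPI1 and LDHA at 0.81 over 61 (0.72) and PGK1 and LDHA at 0.78 (0.68). LDHB ran from -0.29 to 0.19 with the other genes, and LDHA and LDHB correlated at 0.14. These LDHB values include the doubtful spot of MSLW day 90 replicate 8, and they were not computed without it. GAPDH ran from -0.33 to 0.11, and from -0.27 to 0.26 without replicate 9. These fetuses share slides and litters, and the values are a description. The genes whose remaining variation was most like that of LDHA over 61 fetuses were CKM, the muscle creatine kinase (0.84), TPI1 (0.83), PKM2 (0.82), PGK1 (0.80) and STXBP2 (0.80). Each is given by its most alike probe, which for CKM, TPI1 and PGK1 was not the main one. For LDHB they included C11ORF58 (0.84), PPAP2A (0.84), SOD1 (0.84) and ENY2 (0.82), none of them a glycolytic gene.

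Of the other enzymes around the pathway, 11 of 20 could be tested, with 4 higher and 4 lower at day 110 in LW and 6 higher and 4 lower in MS. Of all probes, 23.5% were called lower at day 110 in LW and 28.1% in MS, beside the shares called higher given above. HK1, a hexokinase of many tissues that starts the pathway, fell by 1.02 in LW (adjusted p = 1.37e-18), while the MS value fell by 1.35 (adjusted p = 1.23e-22), while HK2, the insulin-responsive muscle hexokinase, rose by 0.37 and 0.41 (adjusted p = 0.00355 and 0.00184). PKM2, the array's name for pyruvate kinase, which makes the second ATP, rose by 0.55 in MS (adjusted p = 8.58e-06) and by 0.18 in LW, which did not pass (adjusted p = 0.107). It was 0.63 higher in MS at day 110 (adjusted p = 1.18e-06). LDHD, a D-lactate dehydrogenase, rose by 1.50 in LW (adjusted p = 1.08e-05), with 3.19 for MS (adjusted p = 9.83e-14). At day 110, 2 of these 11 were higher in MS (PKM2 and LDHD) and 4 lower, HK1 among them, where 13.7% of all probes were called higher and 15.2% lower.

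Among 5 of 8 genes of fructose bisphosphate turnover that could be tested, 2 rose and 1 fell in LW, and 3 rose and 1 fell in MS. PFKFB1, which sets the level of the PFKM activator fructose 2,6-bisphosphate, rose by 2.88 in LW (adjusted p = 2.00e-21), with 2.28 for MS (adjusted p = 1.59e-16). FBP2, the muscle fructose bisphosphatase, rose by 0.67 and 1.39 (adjusted p = 0.00416 and 1.18e-07) and was 1.01 higher in MS at day 110 (adjusted p = 9.21e-05). Of the transporters of glucose, pyruvate and lactate, 7 of 10 were tested and 6 rose in each genotype, SLC2A4, the insulin-responsive glucose transporter, by 1.91 in LW (adjusted p = 3.68e-18), with 1.22 for MS (adjusted p = 1.22e-10). Among 6 of 6 transcription factors known for glycolytic genes, 3 rose and 1 fell in LW, and 2 rose and 1 fell in MS. HIF1A fell by 0.51 in LW and 0.81 in MS (adjusted p = 9.17e-06 and 8.87e-10), and MYC rose by 0.42 and 0.69 (adjusted p = 0.00117 and 1.14e-06). The 4 of 5 fast fibre markers tested rose in every genotype, and 2 of them were higher in MS at day 90 and 1 at day 110. Of the slow fibre markers, 4 of 5 were tested, 3 of them rose in every genotype, and none passed between MS and LW at either age. Beside the counts of this paragraph, 20.8% to 28.6% of all probes were called higher with age in the 4 genotypes. Called lower with age were 23.5% in LW and 28.1% in MS. Of all probes, 6.23% were called higher in MS at day 90 and 13.7% at day 110, so several of these small counts are near the share over all probes.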

How the data were processed

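Longissimus RNA of 61 fetuses was hybridized to 1 single-colour Agilent array each. The authors deposited scanner files with the intensity of each spot, made with Agilent Feature Extraction 10.10.1.1, and a table of log2 values that they had quantile normalized. Here the background-corrected intensity was quantile normalized and log2 transformed, with control spots left out and spots marked non-uniform set to missing. Probes well above background on 80% of the arrays of at least 1 group were kept. The 75th percentile of the signal per array ran from 469.6 to 1156, and the number of arrays limits the precision. The 8 groups were fitted with limma 3.58.1 in R 4.3.3 (moderated two-sided tests, Benjamini-Hochberg over all kept probes, 1%). The sow, a random effect of the study, was not used here. Replicates are separate fetuses, some of them littermates. The deposited log2 table was matched to probes by row number (median r across arrays = 0.968) and used as an alternative.

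All 10 genes are named, by the main probe with the highest mean. Members and lists were chosen with earlier results of these data known. The tests of each parent within 1 age and the fits without LW day 110 replicate 9 and MSLW day 90 replicates 2 and 8, and the ranges, correlations and balance without an array, were added after seeing the data. Other alternatives changed the signal column, the background correction (normexp, offset 50), the scaling, the filter, marked spots, the slide, the samples fitted and the probe. The fits were tested on simulated data. Probe sequences came from the scanner files, and no genome was used. Some genes and sequences are not reported here.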

Additional observations from a re-analysis of the deposited data

Results flagged for a closer look

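In groups of 5 to 9 fetuses, the gap of the highest or lowest fetus to its neighbour was set against Dixon's 95% critical value for each main probe. This was exceeded in 7 of 80 groups, and chance gives about 1 in 20. LW day 110 replicate 9 was past it as the highest fetus for GPI (15.41) and TPI1 (15.14) and as the lowest for GAPDH (18.16). The others were GPI in MS day 110 replicate 5 (highest, 15.33), GAPDH in LW day 90 replicate 8 (lowest, 18.06), LDHA in LW day 90 replicate 3 (lowest, 14.45) and LDHB in MSLW day 90 replicate 8 (lowest, 13.90). For that last fetus, spots of the same sequence read 14.52 and 14.62.

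PGK1 and LDHA had a larger age difference in MS than in LW, by 0.60 and 1.00 on the log2 scale in limma's test of the interaction.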

How the results depend on the processing

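Counts of the 10 genes called with age were within 1.5 times the main count under every alternative. The count for MS against LW at day 90 was 0 with scaling to the 75th percentile and 2 with the slide as a block. For MS against LW at day 110 it was 3 with only the arrays compared in the fit. For the interaction it was 5 with scaling to the 75th percentile, 1 with only the arrays compared and 4 without LW day 110 replicate 9. For the crosses at day 90 it was 1 with the median signal, the deposited values, normexp, only the arrays compared, or without LW day 110 replicate 9. For the sow's genotype and age it was 1 with the median signal, the deposited values or the slide as a block, 2 with normexp or scaling to the 75th percentile, and 3 without LW day 110 replicate 9. For the sow at day 90 it was 2 with all-array detection or the slide as a block and 0 with the median over probes. For the boar at day 90 it was 1 with the slide as a block. For the sow at day 110 it was 4 with scaling to the 75th percentile and 1 with marked spots kept or only the arrays compared. For the boar at day 110 it was 2 with only the arrays compared.

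Leaving out 1 array (each MSLW day 110 fetus, LW day 110 replicate 9, or MSLW day 90 replicate 2 or 8) gave 9 to 10 calls for age in MS, 2 to 4 for the interaction, 0 to 1 for the crosses at day 90, 0 to 3 for the sow and age, 1 to 2 for the sow at day 90, 1 to 4 for the sow at day 110 and 3 to 4 for the boar at day 110. The count for the sow at day 110 was 4 without MSLW day 110 replicate 1 and 1 without replicate 3 or 5.

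GAPDH, whose differences did not pass in these comparisons, took the opposite sign with scaling to the 75th percentile, to 0.29 with age in LW, 0.63 in MS, 0.47 in LWMS, 0.46 in MSLW and 0.35 for MS against LW at day 110, and with the median over probes to 0.15 in LW and 0.14 in LWMS. That scaling moved the median age difference of all probes from 0.03 to 0.13 in MS. LDHA with age in LW also changed sign with that scaling and passed under neither. Over all 10 genes, comparisons and alternatives, 2789 single differences kept their side of the threshold, 54 gained a call and 30 lost one. The causes were not tested.

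No paired analysis was possible because replicate numbers only follow the order of the samples, and the slide was fitted as a block instead. Littermates were fitted as independent fetuses, and the effect of this on the p-values was not tested.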
